A study of Mus musculus with 96 samples.

Results

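The MHC class I genes and the genes that process and load antigen for them were followed in single EL4 cells, a mouse T-lymphoma line from a C57BL/6 N mouse. The members were taken by name, and were chosen with earlier results of these data known. They are the rows of B2m, H2-K1, H2-D1, H2-T23, Tap1, Tap2, Tapbp, Psmb8, Psmb9 and Nlrc5. All 10 were found among the 24057 genes of the expression table, and all 10 passed the filter on low values that 11980 genes passed.

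EL4 cells had been infected with retroviral particles carrying GFP and an shRNA against luciferase (shLuc, the WT condition) or against Ctcf (shCTCF, the CTCF-KD condition), and GFP+ cells were sorted, with knockdown checked 5 days after infection and populations with an efficient knockdown taken on. Each condition had 2 cultures, shLuc #1 and shLuc #2 or shCTCF #1 and shCTCF #2, and both conditions share the line, the virus and the sort. The cultures numbered #1 form experiment 1 and those numbered #2 form experiment 2, the second knockdown. The Fluidigm C1 system captured the cells, and the 24 judged best in quality from each culture were sequenced. One cell of shLuc #2 with 81 detected genes fell under the minimum of 3000 genes, which left 24, 23, 24 and 24 cells. Since every culture had a capture circuit to itself, an effect of the circuit and one of the condition cannot be told apart inside an experiment. The comparison addresses what differs when Ctcf, which encodes the CCCTC-binding factor, is targeted.

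Class I molecules are heterotrimers of a polymorphic heavy chain, the light chain beta-2-microglobulin and a short peptide, and they show samples of a cell's proteins to CD8+ T cells. The peptides are cut by the proteasome, for which Psmb8 and Psmb9 encode catalytic subunits that replace constitutive ones in the immunoproteasome. The TAP transporter, a dimer of the Tap1 and Tap2 products, carries the peptides into the endoplasmic reticulum, where tapasin (Tapbp) holds the empty heavy chain beside it. Nlrc5 encodes a transactivator of class I genes, and interferon is the classical inducer of the whole pathway. Lymphocytes carry class I at their surface without induction.

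Values are TPM, for which the reads of a gene are divided by its length and every cell is scaled to one total. Cells of a culture are not independent of each other, so the culture was the replicate. With 2 cultures on each side, the smallest p of an exact permutation test (two-sided throughout) is 0.33. Where 4 values are listed without names, they follow the order shLuc #1, shLuc #2, shCTCF #1, shCTCF #2. Recovered reads came to 6192121, 5493040, 5606532 and 3232422 over the cells kept, and the median cell had 4771, 4635, 6173 and 5656 detected genes. Ctcf itself had a mean of 60.3 TPM in shLuc #1 and 37.1 TPM in shLuc #2, against 16 TPM in shCTCF #1 and 44.9 TPM in the culture labelled shCTCF #2. The log2 difference of Ctcf, CTCF-KD minus WT, was -0.79 (exact permutation p = 0.667), and the culture labelled shCTCF #2 lay between the WT cultures. Reads of Ctcf were found in 19, 17, 16 and 20 cells. By RT-qPCR and western blot, the paper reported less CTCF mRNA and protein in both knockdown populations than in the control. Why the single-cell mean of shCTCF #2 was not below both WT means was not tested. All 10 T-cell markers examined had reads, and their summed level was 8276, 8664, 6142 and 6463 TPM, lower in both CTCF-KD cultures than in both WT cultures; the part of this in the members that showed the same order was not tested. Of the markers of other cells, 4 of 5 of the B cell, 2 of 6 of the myeloid (Lyz2 and Adgre1), 2 of 3 of the dendritic cell and 2 of 3 of the NK cell list were at 0 in every cell, as were both measured erythroid markers. The summed myeloid markers had culture means of 40.5 to 52.1 TPM, with 68 of the 95 cells at 0, and their part in any result below was not tested.

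The promoters are shown first, so that the other results can be read beside them. Among the letters searched below, the heavy chain genes and B2m had only CCAAT in common. RefSeq promoter sequences (GRCm38.p6) were at hand for 8 of the 10 members, and the 200 bases before each start were searched on both strands. Letters searched were GGGATTCCC, a form of the kappa B site bound by NF-kappa B, GAAANNGAA and GAANNGAAA, cores of the interferon response site, then CCAAT, the box that factor NF-Y binds, then TGACG, the core of the cyclic AMP response site, and AGGNGGC, which is part of the CTCF motif. The letters were chosen with these promoters in view. In the stretches printed, capitals mark the first 5 of these, and a motif on the other strand appears as its reverse complement.
H2-K1, chr17:34000348-34000547, minus strand: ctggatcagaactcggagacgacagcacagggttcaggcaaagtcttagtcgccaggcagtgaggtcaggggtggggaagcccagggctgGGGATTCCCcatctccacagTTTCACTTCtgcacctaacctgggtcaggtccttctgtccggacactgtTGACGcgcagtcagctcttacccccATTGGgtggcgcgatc
B2m, chr2:122147487-122147685, plus strand: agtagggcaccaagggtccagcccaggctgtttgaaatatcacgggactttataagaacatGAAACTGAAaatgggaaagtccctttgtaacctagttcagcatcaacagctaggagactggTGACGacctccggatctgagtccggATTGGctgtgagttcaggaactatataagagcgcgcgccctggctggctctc

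H2-K1 held the kappa B letters 110 to 102 bases before its start, followed by the interferon response letters, TGACG and CCAAT in reverse. B2m held the interferon response letters 139 to 131 bases before its start, with TGACG and CCAAT closer to the start in the same order as in H2-K1. For the other heavy chain genes a short stretch is shown, since annotated transcripts cover 200 of the 200 bases of the H2-D1 window and 154 of those of H2-T23, the stretch itself included.
H2-K1, chr17:34000429-34000457, minus strand: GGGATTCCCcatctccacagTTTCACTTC
H2-D1, chr17:35262924-35262952, plus strand: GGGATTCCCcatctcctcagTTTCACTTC
H2-T23, chr17:36032806-36032834, minus strand: tcctactgctTTCTCTTTCataaagacac

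Across this stretch H2-K1 and H2-D1 were identical at 28 of 29 positions, and the substitution from H2-K1 to H2-D1 was A17T, counted from 1 at the 5′ end. A local alignment of the 2 windows ran over 139 positions with 91.4% identity, against 75% over 20 positions for H2-K1 and H2-T23. GGGATTCCC was found in 0.213% of the 32851 promoters of the table, and among the members in those of H2-K1 and H2-D1. GAAANNGAA was in 5.57% of all promoters and in those of B2m and H2-T23, while GAANNGAAA was in 5.0% and in those of H2-K1 and H2-D1. CCAAT was in 29.3% of all promoters and in those of B2m, H2-D1, H2-K1, H2-T23, Psmb9 and Tapbp. TGACG was in 15.7% of all promoters and in those of B2m, H2-D1, H2-K1, Psmb9 and Tap1. AGGNGGC was in 21.8% of all promoters and in those of Psmb8, Tap1 and Tapbp. A match is a description of the letters and not of binding.

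In the genome, 8 of the 10 members lie on chromosome 17 within 2.12 Mb (GENCODE annotation of GRCm38). Psmb9 (chr17:34181987-34187764, minus strand), Tap1 (chr17:34187553-34197225, plus strand), Psmb8 (chr17:34197721-34201454) and Tap2 (chr17:34203527-34216321) stand side by side in 34.3 kb. Psmb9 and Tap1 point away from each other and overlap by 212 bases, and the SMARTer libraries do not mark strand, so reads from the overlap cannot be told apart. H2-K1 (chr17:33996017-34000347), H2-D1 (chr17:35262730-35267499) and H2-T23 (chr17:36029773-36032855) are near-identical in parts with one another and with other class I genes. Reads that map to several of them were not counted, so their levels are uncertain. Tapbp lies at chr17:33915899-33929292, B2m at chr2:122147686-122153083 and Nlrc5 at chr8:94434356-94527272.

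B2m was the highest of the members in all 4 cultures, followed by H2-D1, H2-K1, Psmb8, Psmb9, H2-T23, Tap2, Tapbp, Tap1 and Nlrc5 by the mean over cultures. Together the members took 1.26 to 1.48% of all TPM. The culture means of B2m ranged from 5522 to 7405 TPM, and B2m stood at place 6 to 14 among all genes. Neighbours in the order did not overlap in their culture means between B2m and H2-D1, H2-D1 and H2-K1, H2-K1 and Psmb8, Psmb9 and H2-T23, H2-T23 and Tap2, or Tap1 and Nlrc5. Psmb8 and Psmb9 overlapped, as did Tap2 with Tapbp and Tapbp with Tap1. The transporter and tapasin genes were below all of the chains: their culture means lay between 34.2 and 140 TPM, and Nlrc5 between 8.79 and 10.9 TPM.

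**Figure D1:**
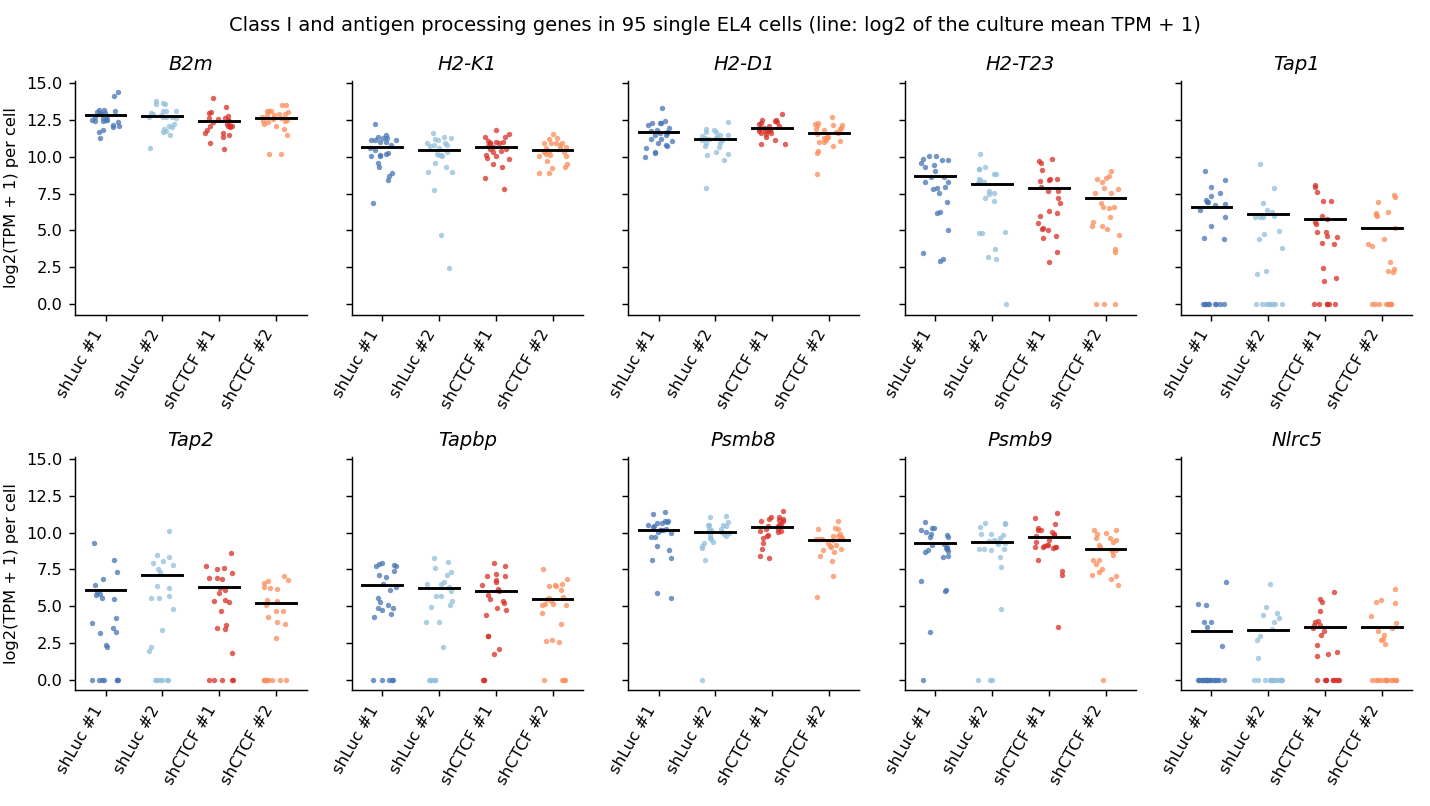
Each point is one cell on the log2(TPM + 1) axis, in 1 panel per gene and 1 column per culture, and the line is the log2 of the culture mean TPM + 1. B2m, H2-K1 and H2-D1 were above 0 in all 95 cells, while Tap1, Tap2, Tapbp and Nlrc5 had cells at 0 in every culture.

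The light chain gene B2m had culture means of 7405, 7172, 5522 and 6478 TPM. Both CTCF-KD cultures were below both WT cultures. Over cells of shLuc #1, B2m ran from 2544 through a median of 6197 to 22270 TPM, and over cells of shCTCF #1 from 1477 through 4625 to 16794 TPM, and the cells of the conditions overlapped. The log2 change, CTCF-KD minus WT, was -0.28 ± 0.31 (SE, limma over 4 cultures, adjusted p = 0.867).

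H2-D1 and H2-K1 encode the classical heavy chains of this strain. H2-D1 had culture means of 3331, 2374, 4047 and 3178 TPM. It was higher in the CTCF-KD culture of each experiment, by 0.28 and 0.42 on the log2 scale, but shCTCF #2 lay below shLuc #1. The change over all cultures was 0.35 ± 0.33 (limma, adjusted p = 0.837). H2-K1 had 1649, 1398, 1629 and 1434 TPM as culture means, a log2 change of 0.01 ± 0.29 (limma, adjusted p = 0.999), whose sign turned when cells or cultures were left out.

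H2-T23, which encodes the nonclassical heavy chain Qa-1, had 421, 281, 241 and 145 TPM. Its level was 57.5% of the WT level in experiment 1 and 51.8% in experiment 2. The log2 change was -0.87 ± 0.40, and it had the smallest unadjusted p of the members (limma, p = 0.0660, adjusted p = 0.669). The single cells spread from 6.60 to 1082 TPM in shLuc #1 and from 6.27 to 933 TPM in shCTCF #1, and cells at 0 were found in shLuc #2 and shCTCF #2.

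The transporter genes differed in how the experiments behaved. Tap1 had 95.1, 68.5, 55 and 34.2 TPM, with log2 differences, CTCF-KD minus WT, of -0.78 in experiment 1 and -0.98 in experiment 2. Tap2 had 66.3, 140, 77.6 and 36.7 TPM, with a log2 difference of 0.22 in experiment 1 and -1.91 in experiment 2. The log2 changes over all cultures were -0.88 ± 0.47 for Tap1 and -0.84 ± 0.57 for Tap2 (limma, adjusted p = 0.733 and 0.776). The change of Tap2 was -0.09 when log2(TPM + 1) was averaged over cells, -0.33 with at least 4000 genes per cell, and between -1.38 and -0.31 when a culture was left out, nearest 0 without shLuc #2 or shCTCF #2. In shLuc #2 single cells stood far above the rest: the highest cell held 735 TPM of Tap1 and the highest for Tap2 1122 TPM, against medians of 20.1 and 45.7 TPM.

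Tapbp had 84.7, 74.6, 65 and 44.6 TPM. Both CTCF-KD cultures were again the lower, with a log2 change of -0.55 ± 0.43 (limma, adjusted p = 0.797). In H2-T23, Tap1 and Tapbp the lowest mean was that of shCTCF #2, the culture with the fewest reads. With cells thinned to 80000 reads, a setting chosen after seeing the data, B2m, H2-T23, Tap1 and Tapbp stayed lower in both CTCF-KD cultures. That order was then shown by 16.9% of all genes. The part of depth in the size of these differences was not tested.

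Psmb8 and Psmb9 had levels that crossed between experiments. Psmb8 had 1163, 1063, 1338 and 715 TPM. Psmb9 had 615, 671, 822 and 483 TPM. In both genes shCTCF #1 held the highest and shCTCF #2 the lowest mean of the 4 cultures. The log2 changes were -0.19 ± 0.37 and -0.03 ± 0.35 (limma, adjusted p = 0.938 and 0.996), and both turned positive, to 0.06 and 0.52, when the mean was taken over cells of log2(TPM + 1).

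Nlrc5 had 8.79, 9.53, 10.8 and 10.9 TPM, and was the one member with both CTCF-KD means above both WT means. The difference was within its error, at 0.22 ± 0.80 on the log2 scale (limma, adjusted p = 0.971). The whole of Nlrc5 in shLuc #1 was 199 reads, of which 104 came from 1 cell.

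Across the members, 4 of 10 (B2m, H2-T23, Tap1 and Tapbp) were lower in both CTCF-KD cultures than in both WT cultures, an order that 16.9% of all genes tested showed. The opposite order was found for 1 of 10, against 19.9% of all genes. On the mean of log2(TPM + 1) the lower order was kept by B2m and H2-T23, and on the mean over cells of RPM (reads scaled to a common depth, not divided by length) by B2m and Tap1, while on the RPM of the pooled reads of a culture all 4 kept it. Without shCTCF #2, the same 4 members were below both WT cultures in shCTCF #1, and 4 others, H2-D1, Psmb8, Psmb9 and Nlrc5, were above both, where 32.3% and 31.3% of all genes were.

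No member passed limma with Benjamini-Hochberg adjustment over the 11980 genes, and no other gene did (0% called). The adjusted p of the members ran from 0.669 to 0.999. At an unadjusted p under 0.05, limma counted 0 of the 10 members and 7.61% of all genes. With the experiment number as a replicate block, 4 of 10 members (H2-T23, H2-D1, B2m and Tap1) had an unadjusted p under 0.05, against 12.8% of all genes, and the smallest adjusted p of a member was 0.250. The median log2 change of the members was -0.24, beside 0.04 over all genes tested. On the mean of log2(TPM + 1) these medians were -0.02 and 0.23. On that scale Tap1, Tap2 and Tapbp were at -0.44, -0.09 and -0.23, and H2-K1 and Nlrc5 at 0.35 and 0.64. Without the culture labelled shCTCF #2 the median of the members was -0.09, and H2-T23 and Tap1 had changes of -0.51 and -0.55.

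**Figure D2:**
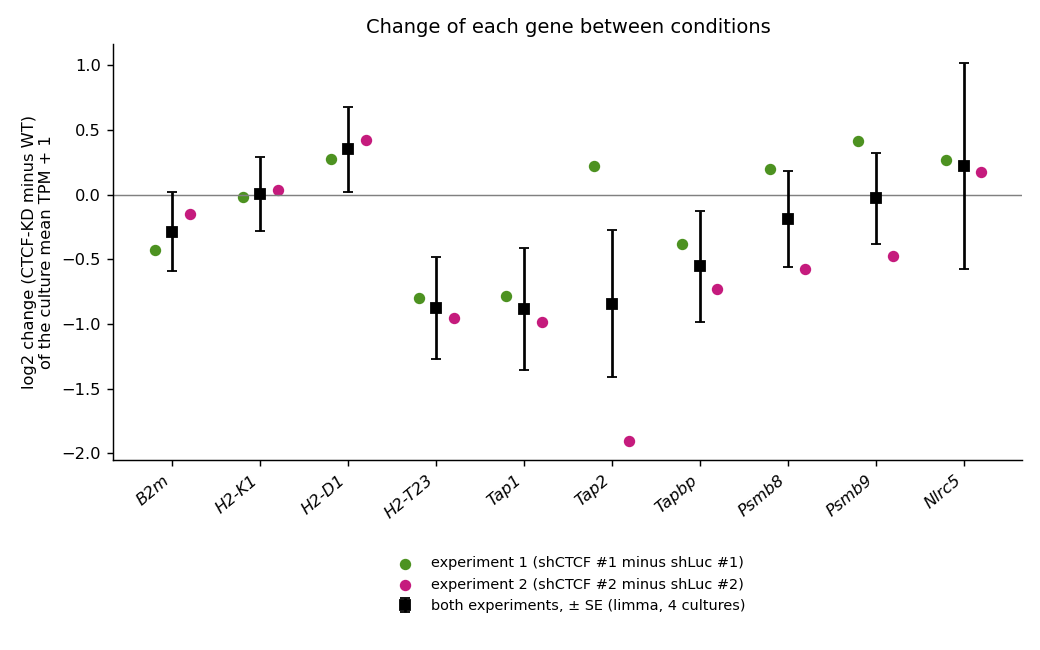
The axis is the log2 change of the culture mean TPM + 1, CTCF-KD minus WT, with experiment 1 and experiment 2 as points and the value over 4 cultures as a square ± SE from limma. B2m, H2-T23, Tap1 and Tapbp lie below 0 in both experiments, H2-D1 and Nlrc5 above it in both, and the points of Tap2 lie on either side of it at 0.22 and -1.91.

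Ratios of culture means compare the members with their partners. For each transcript of H2-K1 there were 2.02 and 1.70 of H2-D1 in shLuc #1 and #2, and 2.48 and 2.22 in shCTCF #1 and #2, per length. Both CTCF-KD cultures had the higher ratio (exact permutation p = 0.33, the smallest this design allows), and H2-D1 exceeded H2-K1 in 85 of 95 cells. The ratio of H2-K1 to H2-T23 was 3.92 and 4.98 in the WT cultures and 6.75 and 9.90 in the CTCF-KD cultures, again without overlap (exact permutation p = 0.33). B2m stood to the sum of the 3 heavy chains as 1.37 and 1.77 in the WT cultures and as 0.933 and 1.36 in shCTCF #1 and #2. In 62 of 95 cells the light chain exceeded this sum, with 19, 19, 6 and 18 of them in the 4 cultures, which puts shCTCF #1 below the others.

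The immunoproteasome subunits were set against the constitutive subunits they replace. Psmb8 exceeded Psmb5 4.34- and 5.23-fold in shLuc #1 and #2, and 3.74- and 2.29-fold in shCTCF #1 and #2, and it was the higher gene in 86 of 95 cells. Psmb9 was below Psmb6 in every culture, with ratios of 0.610, 0.656, 0.589 and 0.461, and above it in 25 of 95 cells. Psmb10, the third immunoproteasome subunit, was at 0.399, 0.101, 0.335 and 0.203 of Psmb7. EL4 cells thus carried Psmb8 above and Psmb9 and Psmb10 below their counterparts at the level of RNA. In all, 9 ratios were compared, and none could pass a test, with adjusted p of 0.5 to 1 over the 9 exact permutation tests.

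Detection separated the members into those found in nearly every cell and those found in some. B2m, H2-K1 and H2-D1 had reads in all 95 cells. Psmb8 had reads in all cells but 1, a cell of shLuc #2. H2-T23 was found in 24, 22, 24 and 21 cells and Psmb9 in 23, 20, 24 and 23 cells. Tap1 was found in 62.5%, 65.2%, 75% and 62.5% of cells, Tap2 in 70.8%, 73.9%, 79.2% and 66.7%, and Tapbp in 79.2%, 78.3%, 87.5% and 83.3%. The exact 95% binomial interval of Tap1 in shLuc #1 was 40.6 to 81.2%, so that shares of these genes with 23 or 24 cells could not be told apart. Such intervals cover counting error only.

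Nlrc5 was found in 29.2% of cells of shLuc #1 (7 cells, exact interval 12.6 to 51.1%), 43.5% of shLuc #2 (10 cells), 62.5% of shCTCF #1 (15 cells, 40.6 to 81.2%) and 50.0% of shCTCF #2 (12 cells). Both CTCF-KD shares were higher, by 19.9 percentage points on average (exact permutation p = 0.33), and by 7.79 points when a cell had to hold more than 10 TPM. With every cell thinned to 80000 reads the shares were 29.2%, 43.5%, 54.2% and 47.8%. The other member detected in more cells of both CTCF-KD cultures was Tapbp, so 2 of 10 members showed that order, while 36.2% of all genes did. The reverse order was shown by 0 of 10 members and by 5.96% of all genes. With thinned cells Tapbp lost the order and Psmb9 gained it, and Nlrc5 kept it. The median cell had reads of 8 members in both WT cultures and of 9 in both CTCF-KD cultures, where cells also had more genes detected in all.

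**Figure D3:**
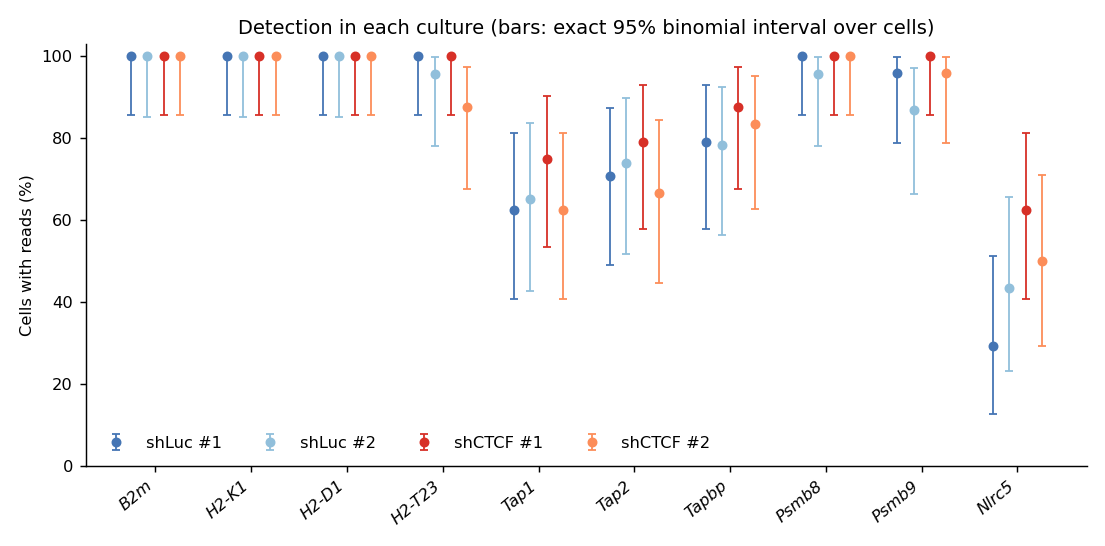
The axis is the percent of cells with reads of each gene, 1 point per culture with its exact 95% binomial interval over 23 or 24 cells. Nlrc5 stands at 29.2% in shLuc #1 and 62.5% in shCTCF #1, and at 43.5% in shLuc #2 and 50.0% in shCTCF #2. The intervals of the cultures overlap for each gene.

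Cell-to-cell variation was described by the coefficient of variation (CV), the SD divided by the mean of the log2(TPM + 1) values across the cells of a condition. B2m had a CV of 0.0584 in WT cells, beside 0.0657 under CTCF-KD. H2-D1 had 0.0786 and 0.0616. The CV of Nlrc5 was 1.45 against 1.00 under CTCF-KD. The CV falls as the mean rises, so each was set beside genes of like mean, of which B2m had 14 and H2-D1 19. In WT cells the CV of B2m was above that of 85.7% of such genes, and under CTCF-KD above that of 92.9%. For H2-D1 these shares were 89.5% and 52.6%. In WT cells H2-K1, Psmb8 and Psmb9 stood at 88.5% to 90.2%, while Tapbp, H2-T23, Nlrc5, Tap1 and Tap2 stood at 28.7% to 42.4%. This split was not kept under CTCF-KD. There H2-T23, Tap1 and Tap2 stood at 91.6%, 86.2% and 83.3%, and Tapbp at 64.98%. H2-K1 and Psmb8 were at 54.8% and 57.5% under CTCF-KD, Psmb9 at 89.1% and Nlrc5 at 16.4%.

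The CV was lower in CTCF-KD cells for 8 of 10 members, the exceptions being B2m and H2-T23 (0.328 to 0.383 for the latter), and it was lower for 81.5% of all 7843 genes. The study's rule calls a gene whose CV difference is above 0.127 or below -0.685, which is the mean difference over genes plus or minus 1 SD. Under it 0 of 10 members had decreased CV, where 11.3% of all genes did, and 0 of 10 had increased CV, where 7.68% did. Among the members the difference of Nlrc5, at -0.45, was the lowest. It was followed by Psmb9 at -0.14, with CVs of 0.294 and 0.424 in shLuc #1 and #2, and 0.169 and 0.252 in shCTCF #1 and #2. For Psmb9 both CTCF-KD cultures lay below both WT cultures, as they did for Nlrc5, Tapbp, H2-K1 and Psmb8, while B2m had the reverse order. The share of all genes with this order of CVs was not counted, and a lower CV was itself found for 81.5% of them.

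H2-K1 had an SD of 1.76 on the log2 scale in WT and 0.836 in CTCF-KD cells. Its CV was 0.116 and 0.224 in shLuc #1 and #2, and 0.0892 and 0.0720 in shCTCF #1 and #2. In shLuc #2, 2 cells held 4.41 and 25.1 TPM of H2-K1, while the lowest cells of the CTCF-KD cultures held 230 and 475 TPM. The same order was found for Psmb8, with 0.152 and 0.230 in the WT and 0.0812 and 0.120 in the CTCF-KD cultures. Each CV was also divided by a running median CV over genes ranked by mean in the same condition. That set was not the genes of like mean counted above. On this scale 4 members, H2-K1, H2-D1, Psmb8 and Psmb9, were called decreased, beside 9.84% of all genes. By limma on the CV of each culture, 0 of 10 members were called and 4.21% of all genes were. The smallest unadjusted p of a member was 0.0541, for Psmb9 (limma, adjusted p = 0.187).

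**Figure D4:**
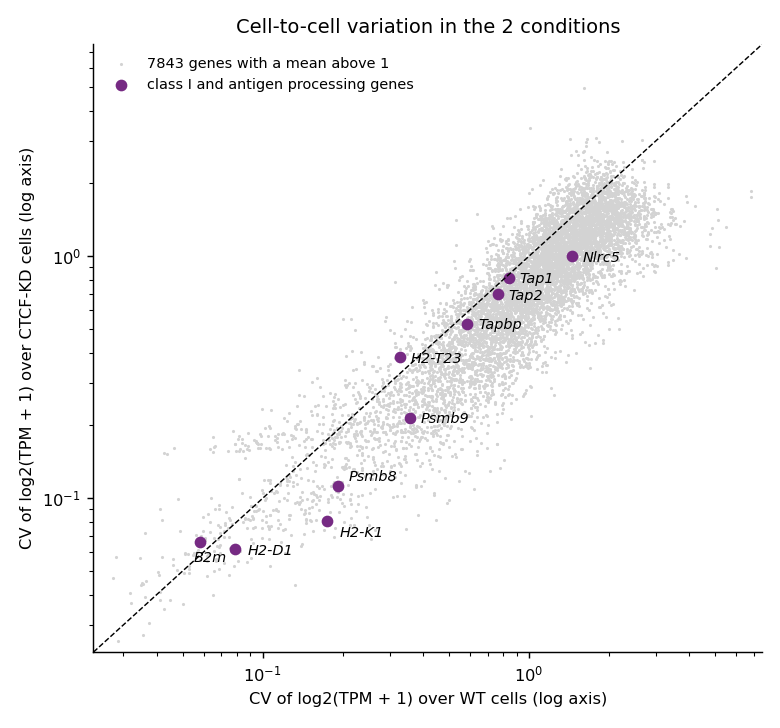
Each point is a gene with a mean log2(TPM + 1) above 1, with its CV over WT cells and over CTCF-KD cells on log axes, and the dashed line marks equal CV. The 10 members, in purple, run from B2m at 0.0584 and 0.0657 to Nlrc5 at 1.45 and 1.00, and 8 of them lie under the line.

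Co-variation asks whether cells with more of one member had more of another. Pearson's r was taken over 95 cells on log2(TPM + 1) centred within each culture, as a description, since the cells share their culture, circuit and depth. B2m and H2-D1 had the highest r of the 45 pairs, 0.52, and within cultures 0.56, 0.54, 0.51 and 0.49. H2-D1 and Psmb8 followed at 0.44, with -0.04 in shLuc #1 and 0.38 to 0.73 in the other cultures, but Spearman's rho of this pair was 0.15. B2m and Psmb8 had 0.40, H2-D1 and Psmb9 0.34, B2m and Nlrc5 0.33, and B2m and Psmb9 0.31, each above 0 in all 4 cultures. By rank the order of the pairs changed: H2-K1 and H2-D1 had the highest rho, 0.43, B2m and H2-D1 had 0.40, and B2m and Psmb8 had 0.19. Pearson's r was 0.25 for B2m and H2-K1, with 0.23, 0.19, 0.25 and 0.59 within cultures, and 0.25 for H2-K1 and H2-D1.

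The transporter and tapasin genes held both the lowest pairs and pairs above 0. Tap1 and Tap2, whose products form one dimer, had an r of -0.20, and B2m and Tapbp -0.19. Tapbp and H2-K1 had 0.20, Tap2 and Psmb8 0.18, and Tap1 and B2m 0.17. Of the pairs, 38 of 45 were above 0, and the median r was 0.15, beside 0.03 over all pairs of 7843 genes. An r above 0.2 was found for 12 of the 45 pairs and for 6.50% of all pairs of genes. Among the 308 genes with a mean level at or above that of Psmb9, 27.6% of pairs were above 0.2 and the median r was 0.08.

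Each member also rose with the number of genes detected in a cell, with r from 0.12 for Tapbp to 0.36 for H2-T23. After genes detected had been removed within each culture, the median r of the members was 0.11, the median over all genes was near 0, and B2m and H2-D1 had 0.45. With the reads of Ctcf the members had r from -0.23 for B2m to 0.15 for Tap1. These are weak values in sparse counts, and no order is read from them.

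**Figure D5:**
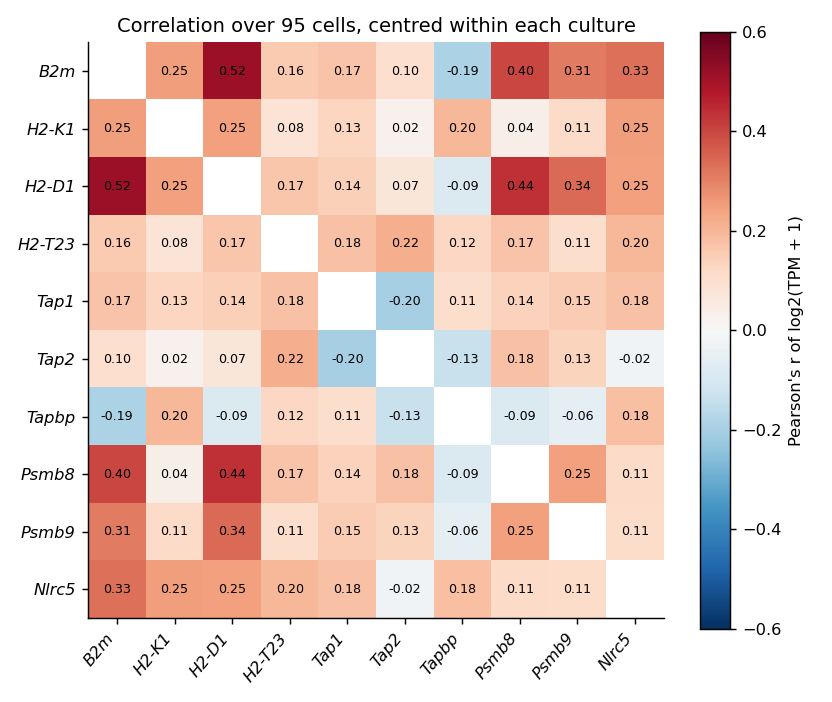
Each square gives Pearson's r of 2 members over 95 cells after centring within cultures, on a colour scale from -0.6 to 0.6. B2m, H2-D1, Psmb8 and Psmb9 have r of 0.25 to 0.52 with one another, but Spearman's rho of 0.15 to 0.40. Tap1 with Tap2 and B2m with Tapbp have the lowest values of r.

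Genes whose cells were most like the members were sought with the mean z score of the 9 members with reads in at least 50% of cells, which leaves out Nlrc5. The highest r over 95 cells was that of Slc6a13, a transporter of the GABA family, at 0.53, with 0.51, 0.73, -0.04 and 0.66 within cultures. H2-Q7, a nonclassical class I gene, had 0.51 and was at least 0.48 in each culture. Ilf2, Cd3d and the class I gene H2-T9 had 0.51, 0.48 and 0.48. Reads of H2-Q7 and H2-T9 may be shared with the heavy chain members, so their values are uncertain. Cd3d, a chain of the T-cell receptor complex, had 2679, 2161, 1999 and 1768 TPM in the 4 cultures, and H2-Q7 48.5, 88.4, 112 and 64.9 TPM.

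The wider pathway was followed in lists of genes around the members, and in each list 0 genes passed limma with adjustment over all genes. Of 9 genes of peptide loading and trimming, 2 were lower and 2 higher in both CTCF-KD cultures, against 16.9% and 19.9% of all genes. Calr, the chaperone calreticulin, had 274, 218, 421 and 462 TPM, a log2 change of 0.85 ± 0.31 (limma, adjusted p = 0.610). Pdia3, its partner oxidoreductase, had 0.73 ± 0.47, while Tapbpl, a tapasin homologue, had -2.04 ± 1.06 and the aminopeptidase Lnpep -0.55 ± 0.75. Values of the loading genes lay on both sides of 0.

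Of 8 proteasome catalytic and activator genes, 4 were higher in both CTCF-KD cultures and 0 lower, against 19.9% and 16.9% of all genes. Psmb10 had 81, 56.1, 147 and 99.3 TPM, a log2 change of 0.83 ± 0.42 (limma, adjusted p = 0.708). Psmb5 had 0.51 ± 0.32, the assembly factor Pomp 0.11 ± 0.28 and the activator Psme1 -0.07 ± 0.33. Of 11 genes of the constitutive core, 4 were higher and 1 lower in both CTCF-KD cultures, with changes from -0.35 ± 0.28 (Psmb1) and -0.04 ± 0.30 (Psma2) to 0.58 ± 0.30 (Psma7) and 0.64 ± 0.29 (Psmb3). The median change was 0.43 in both proteasome lists, beside 0.04 over all genes.

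Of 17 transcription factors that act on class I genes, 5 were lower and 2 higher in both CTCF-KD cultures, against 16.9% and 19.9% of all genes. Nfyc, a subunit of the factor that binds CCAAT, had 15, 8.45, 62.5 and 33.8 TPM, and was found in 6, 8, 17 and 17 cells. Its log2 change was 1.93 ± 0.67 (limma, p = 0.0257, adjusted p = 0.610). Nfkb1, a subunit of NF-kappa B, had 0.71 ± 0.44, and Creb1, which binds TGACG, -1.33 ± 0.83. Of 9 interferon receptor and signalling genes tested, 2 were lower and 1 higher, with -0.59 ± 0.80 for Tyk2, -0.34 ± 0.49 for Ifnar1, 0.26 ± 0.46 for Ifngr2 and 1.21 ± 0.95 for Ifnar2.

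Of 17 genes that interferon induces, 4 (Ifit1, Ifit3, Gbp7 and Cxcl10) had no read in any of the 95 cells, and 11 could be tested. Of all 24057 genes, 13334 had reads in these cells and 11980 could be tested, so a lack of reads was not particular to this list. Gbp2, a guanylate-binding protein, had 140 reads in 2 cells of shLuc #1 and 41 reads in 1 cell of shLuc #2, and 0 reads in both CTCF-KD cultures (limma, unadjusted p = 0.00326, adjusted p = 0.585). Ifi27 had a change of -0.43 ± 0.32, Ifi35 of 0.85 ± 0.38 and Igtp of 1.4 ± 0.89.

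Of the other class I and class I-like genes, 13 were tested. In both CTCF-KD cultures 3 of them were lower and 0 higher, against 16.9% and 19.9% of all genes. H2-T24 had -0.90 ± 0.56, Mr1, which presents vitamin metabolites, -1.35 ± 1.06, H2-Q7 0.38 ± 0.50 and Hfe, a class I-like regulator of iron uptake, 1.02 ± 0.84. Among the class II genes H2-Aa and H2-Ab1 had no read in any cell. H2-Oa, which encodes a chain of a class II chaperone, had 118, 111, 65.9 and 39.9 TPM, a log2 change of -1.14 ± 0.43 (limma, adjusted p = 0.623). H2-Eb1 had -0.36 ± 0.97, Cd74, the invariant chain, 0.87 ± 1.08, and Ciita, the class II counterpart of Nlrc5, 1.02 ± 0.64.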

How the data were processed

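Single-cell RNA-seq of 96 EL4 cells from 4 cultures was used. The authors used STAR on GRCm38, passed the reads that mapped to 1 place to HTSeq and deposited TPM; the HTSeq strand setting is not given in the sources used here. The members and gene lists were chosen with earlier results of these data known. Named were the members, Ctcf, of each list the genes past the threshold or else the 2 highest and 2 lowest limma statistics, and the 5 genes most like the members over cells. One gene that this rule names is not reported here.

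Cells with at least 3000 genes were kept (95 of 96). Whole reads, recovered from the steps in the TPM values (tolerance 0.001, 100% of values above 0), served for depth, RPM and thinning to 80000 reads (94 cells). Tested were genes reaching a log2(TPM + 1) over 1 in 2 cells or more, with limma 3.58.1 (R 4.3.3; eBayes with a trend) on the log2 of the culture mean TPM + 1, across all genes, with Benjamini-Hochberg adjustment at 0.05. Variation and correlations used genes with a mean log2(TPM + 1) above 1. A p measures the spread between 2 cultures per condition. The culture numbers pair the samples, since the study's methods describe #2 as a second knockdown with its own control, possibly with another shRNA. Deviations of same-numbered cultures had a correlation of 0.27 across 7843 genes. The scripts were tested on simulated data. Alternatives covered scale, pseudocount, filters, depth, the replicate block and leaving out each culture.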

Additional observations from a re-analysis of the deposited data

Results flagged for a closer look

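In the cell of shLuc #2 that had been left out for its 81 detected genes, B2m stood at 81256 TPM, place 2 of the genes in that cell, while the other 9 members were at 0. The highest kept cell of that culture held 14239 TPM of B2m. The comparisons of the report leave this cell out, and it enters the setting with no filter on cells. With that cell included, the log2 change of B2m was -0.54 in place of -0.28.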

How the results depend on the processing

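The count of members called in expression was 0 under all 14 alternatives, and 10 of 140 recomputed log2 changes turned in sign. These were H2-K1 (-0.013 with at least 4000 genes per cell, and -0.109 to 0.128 when a culture was left out, below 0 without shLuc #2 or shCTCF #1), Psmb8 (0.061 on the mean of log2 values, and -0.637 to 0.266 when a culture was left out, above 0 without shCTCF #2) and Psmb9 (0.518 on the mean of log2 values, 0.0032 with no filter on cells, 0.024 on RPM, and -0.410 to 0.355 when a culture was left out, above 0 without shLuc #2 or shCTCF #2); the cause was not tested. With the experiment number as a replicate block the count of members called in expression was 0, and 0 in CV by limma, where the block moved the calls over all genes from 5 higher and 324 lower to 24 and 1557; the pairing changed no other call. On the mean of log2 values limma called 44 genes higher and 2 lower. The members lower in both CTCF-KD cultures numbered 2 on that scale and 2 on the mean over cells of RPM, where 10.1% and 16% of all genes had that order, and 4 on the RPM of pooled reads; these settings, and the other settings for this count, were chosen after seeing the data. Members with decreased CV numbered 4 against the running median CV of genes ranked by mean, and 1 member, H2-T23, had increased CV with the mean above 2. The median correlation of the members was 0.11 after removal of genes detected and ranged from 0.110 to 0.168 when a culture was left out, lowest without shLuc #2. The change of Ctcf ranged from -1.51 to -0.07 when a culture was left out. The levels of Nlrc5 rest on 117 to 242 reads per culture.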
